A study of Rattus norvegicus with 6 samples.

Results

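The genes described here are 10 direct feedback targets, receptors and transcription factors of Wnt/beta-catenin signalling: Axin2, Nkd1, Nkd2, Notum, Rnf43, Znrf3, Lgr5, Lgr6, Lef1 and Tcf7. They were taken by gene symbol from the deposited tables, and all 10 were found among 17954 genes. Expression was measured by mRNA sequencing of chondrocytes (cartilage cells) from the condyle of the rat mandible, part of the jaw joint, in 3 libraries of flat (2D) culture and 3 libraries of condylar cartilage organoids. Cells in 2D culture grew in DMEM with 20% fetal bovine serum and antibiotics, whereas organoids were kept in a special chondrogenic medium, both at 5% CO2 and 37 °C, so format, medium and serum cannot be told apart. The labels give neither strain, age and sex nor the organoids' time in culture, their starting cells or the number of animals. Separate cultures or animals behind the replicates are not stated either, and p-values therefore reflect only how far these samples differ, which can be technical.

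Wnt ligands bind Frizzled receptors with the co-receptors Lrp5 and Lrp6, which stops the destruction complex from degrading beta-catenin. Beta-catenin then enters the nucleus and acts on genes through TCF/LEF factors, and several of the genes it switches on restrain the pathway again. Rnf43 and Znrf3 are ubiquitin ligases that remove Frizzled from the cell surface, and R-spondins, held by the Lgr receptors, clear these ligases away and so raise the sensitivity of a cell to Wnt. In growing cartilage the pathway acts on the balance between chondrocyte maturation and bone formation.

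Library totals ran from 18592574 to 26472447 estimated counts. Organoid libraries were less alike than 2D libraries (Spearman correlations of 0.847 to 0.913 against 0.992 to 0.994), and 93.6% of the 13052 genes tested had a larger SD of log2 level in organoids. Levels are CPM, counts scaled to library size with a TMM correction for RNA composition, given per library or as mean ± SD (n = 3). They are not corrected for gene length, so a higher CPM of 1 gene than of another is not read as more transcripts. A log2 fold change is the fitted organoid level over the 2D level, ± SE, and a gene is called where the adjusted p of edgeR's quasi-likelihood test is under 0.05. Cartilage identity was checked on Col2a1, Acan and Sox9. Acan, the cartilage proteoglycan, ran from 1413 to 1513 CPM in 2D culture and from 1717 to 8278 CPM in organoids and did not pass (edgeR adjusted p = 0.0824). Sox9, the chondrocyte transcription factor, ran from 51.4 to 55.4 CPM in 2D culture and from 716 to 1420 CPM in organoids and was called higher. Col2a1, the main cartilage collagen, was at 2.91 to 4.89 CPM in 2D culture and at 6414 to 78321 CPM in organoids, and was called higher.

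All 10 members passed the filter on low counts, which 1 group alone can meet. Lgr5, with at most 5 counts in an organoid, met it through 2D culture. Rnf43, with 6.22 to 18 counts in 2D culture, met it through organoids. Of the 10 members, 6 rose in organoids (Lgr6, Lef1, Tcf7, Rnf43, Znrf3 and Notum). Of the rest, 1 fell (Lgr5) and 3 did not pass the test (Axin2, Nkd1 and Nkd2). Among all genes tested 14.9% were called higher, 12.6% lower and 27.5% in either direction. Those in either direction were 3594 genes, and without 2D culture 1, 2 or 3 the number fell to 1114, 1211 and 1109. Calls given below as lost without a 2D library stand beside this general fall. The median log2 fold change was 1.96 over the members and -0.03 over all genes tested. Levels of 8 members did not overlap between the groups, a separation that 53.5% of all genes tested showed. The plot of member levels by library gives every value.

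**Figure D1:**
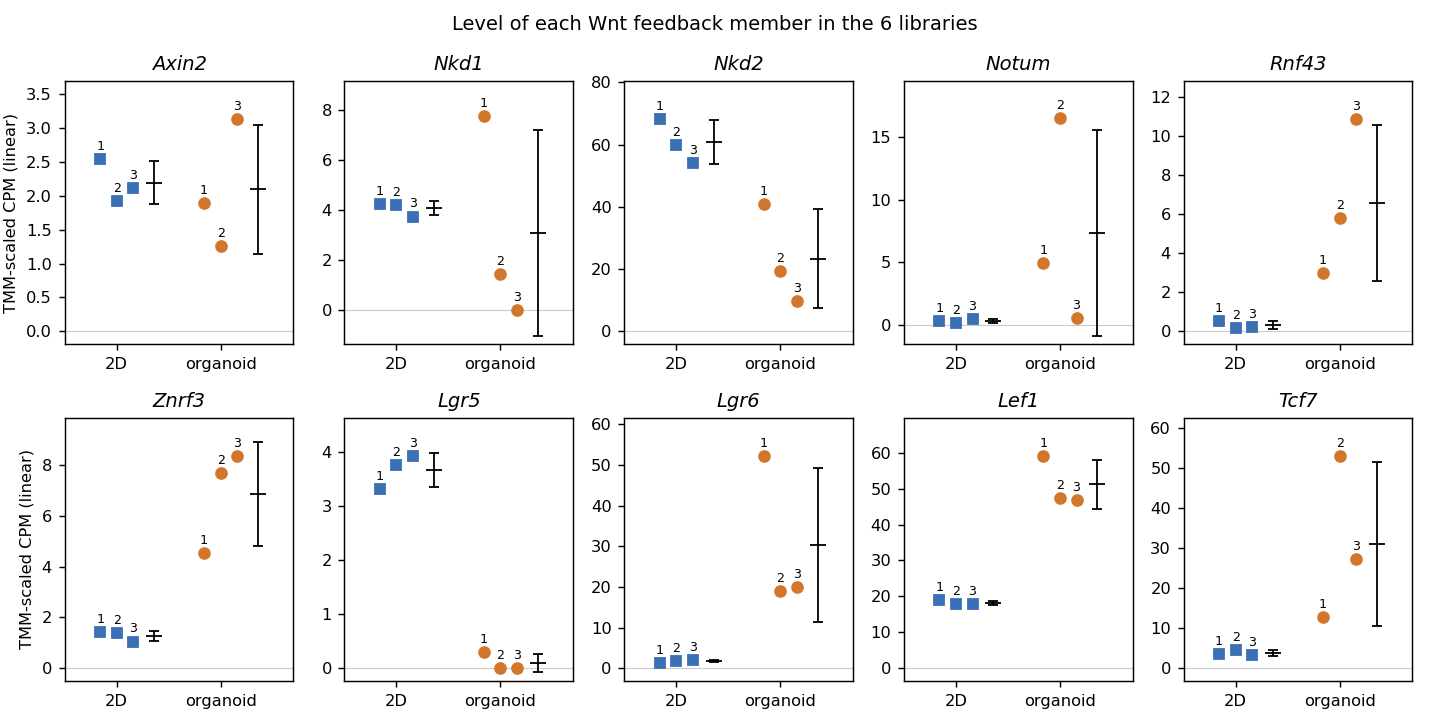
Each panel plots 1 gene; the vertical axis is its TMM-scaled CPM on a linear scale of its own, squares are the 3 libraries of 2D culture and circles the 3 organoids, each numbered by replicate, and the bar beside each group is mean ± SD (n = 3), which reaches below 0 where the SD exceeds the mean. Lef1 sits tightly in both groups, at 17.8 to 18.9 and at 46.9 to 59.1 CPM, whereas the organoids spread from 0.615 to 16.5 CPM for Notum and from 0 to 7.78 CPM for Nkd1.

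Because TCF/LEF factors recognise a short DNA word, the RefSeq promoter windows of the members (GRCr8, 250 bases before to 50 after the annotated start, matched by gene ID) were searched for CTTTGAT, its shorter form CTTTGA, and CTTTGT, on both strands. Every CTTTGAT also holds CTTTGA. The table held a window for 7 of the 10 members, and not for Notum, Znrf3 or Lgr5. CTTTGAT occurred once each in the windows of Axin2, Nkd1 and Tcf7, and in 3.63% of all 33469 windows in the table. CTTTGA occurred in 16.1% and CTTTGT in 18.8% of all windows. Axin2 carried an additional CTTTGA, the windows of Nkd2, Rnf43, Lgr6 and Lef1 held none of these words, and CTTTGT was in none of the 7. The stretches with a match are printed from 5′ to 3′ on the gene's strand with the matches in capitals. They show where the word lies in the windows of Axin2, Nkd1 and Tcf7.
Axin2, chr10:94398535-94398679, plus strand: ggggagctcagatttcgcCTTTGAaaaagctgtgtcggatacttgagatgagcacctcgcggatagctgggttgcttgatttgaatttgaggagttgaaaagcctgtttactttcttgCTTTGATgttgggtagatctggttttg
Nkd1, chr19:34722961-34723007, minus strand: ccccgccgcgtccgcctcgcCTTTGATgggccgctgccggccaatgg
Tcf7, chr10:36954277-36954303, minus strand: cggctcgctgcccgcggtgcCTTTGAT
In Axin2 the CTTTGAT began 132 bases before the annotated start, in Nkd1 141 bases before it, and in Tcf7 it lay across the start. Of these 3 genes Tcf7 rose in organoids, and Axin2 and Nkd1 did not pass the test. A match is a description of the letters, not evidence of binding, and the coordinates are those of the RefSeq table, because the build used for the deposited counts is not given in the sources used here.

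The TCF/LEF factors, through which beta-catenin acts on DNA, were higher in organoids. Lef1 (gene ID 161452), which also marks cells that answer to Wnt, was at 18.9, 17.8 and 17.9 CPM in 2D culture 1, 2 and 3 and at 59.1, 47.5 and 46.9 CPM in organoid 1, 2 and 3. All organoids lay well above all 2D libraries, and the organoids differed little from each other. Lef1 rose 2.81-fold (log2 fold change 1.49 ± 0.22, edgeR adjusted p = 0.00436). Its call held under all 13 alternative settings, with total library size giving the smallest change, 0.86. Tcf7 (gene ID 363595), which encodes TCF-1, was at 3.43, 4.65 and 3.37 CPM in 2D culture and at 12.7, 52.9 and 27.2 CPM in organoids. The groups did not overlap, and organoid 2 stood 4.18 times as high as organoid 1. Tcf7 rose 8.09-fold (3.02 ± 0.56, edgeR adjusted p = 0.0106). Without 2D culture 1 or 3 its call was lost (edgeR adjusted p = 0.0645 and 0.0626), and without organoid 2 the change was 2.43. In bulk RNA such as this, fewer cells of a type and less RNA per cell cannot be told apart.

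The other family members, listed here for context, were Tcf7l1, often a repressor of Wnt targets, and Tcf7l2. Tcf7l1 averaged 4.98 ± 0.873 CPM in 2D culture and 46.7 ± 32.4 CPM in organoids (3.23 ± 0.56 on the log2 scale, edgeR adjusted p = 0.0085) and lost its call without 2D culture 1 or 3. Tcf7l2 went from 22.6 ± 1.7 to 268 ± 83.5 CPM (3.56 ± 0.29, edgeR adjusted p = 0.000687). All 4 genes of the TCF/LEF family were therefore called higher in organoids. Ctnnb1, which encodes beta-catenin itself, was at 193 to 247 CPM in 2D culture and at 253 to 748 CPM in organoids, and did not pass (1.23 ± 0.40, edgeR adjusted p = 0.0597). It passed with DESeq2 (adjusted p = 0.00707), with limma-voom weighted per group (adjusted p = 0.03) and without organoid 1 (1.57, edgeR adjusted p = 0.0101).

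None of the intracellular feedback inhibitors passed the test. Axin2 (gene ID 29134), the inducible scaffold of the destruction complex and the most widely used readout of beta-catenin activity, was at 2.54, 1.93 and 2.10 CPM in 2D culture and at 1.89, 1.26 and 3.12 CPM in organoids. Organoid 3 was the highest of the 6 libraries and organoid 2 the lowest, so that the groups overlapped fully. The log2 fold change was -0.07 ± 0.66 (edgeR adjusted p = 0.951), and over the 13 alternative settings it ran from -0.67 to 0.24. Axin2 rested on 21 to 83 counts per library.

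The Naked cuticle genes encode inhibitors that bind Dishevelled. Nkd1 (gene ID 364952) was at 4.26, 4.22 and 3.75 CPM in 2D culture and at 7.78, 1.44 and 0 CPM in organoids. Organoid 1 lay above every 2D library and the other two organoids lay below them, with 132, 24 and 0 counts. The fitted change, -0.41 ± 1.47, did not pass (edgeR adjusted p = 0.864), and it was 0.17 without organoid 3 and -2.51 without organoid 1. Nkd2 (gene ID 308068) was at 68.2, 59.9 and 54.2 CPM in 2D culture and at 40.8, 19.4 and 9.75 CPM in organoids. Every organoid lay below every 2D library, and organoid 1 was 4.19 times as high as organoid 3. The change of -1.38 ± 0.50 did not pass (edgeR adjusted p = 0.0829). It did pass with total library size (-2.10, edgeR adjusted p = 0.0103), DESeq2 (-1.35, adjusted p = 0.0287), limma-voom (-1.66, adjusted p = 0.0253) and limma-voom weighted per group (-1.67, adjusted p = 0.0273), and without organoid 1 (-2.05, edgeR adjusted p = 0.0148).

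The secreted and membrane-bound feedback inhibitors were higher in organoids. Notum (gene ID 303743), a secreted enzyme that inactivates Wnt ligands by removing their lipid, was at 0.368, 0.214 and 0.495 CPM in 2D culture and at 4.95, 16.5 and 0.615 CPM in organoids. Organoid 2 was 26.8 times as high as organoid 3, which, at 13 counts, was barely above the 2D libraries with 7 to 16 counts. Notum rose 20.2-fold in the fit (4.33 ± 1.23, edgeR adjusted p = 0.0411), and this call was the least stable of the 6. It was lost without any single library except organoid 3 (edgeR adjusted p of 0.059 to 0.151), with total library size (edgeR adjusted p = 0.0509) and with limma-voom (adjusted p = 0.148). The change was 2.98 without organoid 2.

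Rnf43 and Znrf3, the paired ubiquitin ligases of Frizzled, both rose. Rnf43 (gene ID 303412) was at 0.552, 0.19 and 0.217 CPM in 2D culture and at 3.0, 5.83 and 10.9 CPM in organoids. It had 6.22 to 18 counts per 2D library and 51 to 230 per organoid, and a fractional count in 1 library, a sign of reads shared with other genes. Rnf43 rose 20.4-fold (4.35 ± 0.87, edgeR adjusted p = 0.0133). Znrf3 (gene ID 685487) was at 1.41, 1.38 and 1.05 CPM in 2D culture and at 4.54, 7.69 and 8.38 CPM in organoids. All 3 organoids exceeded all 2D libraries for both ligases, and organoid 1 was the lowest organoid for both. Znrf3 rose 5.35-fold (2.42 ± 0.57, edgeR adjusted p = 0.0215). Without any of 2D culture 1, 2 or 3 neither ligase passed (edgeR adjusted p of 0.0508 to 0.0847 for Rnf43 and 0.11 to 0.131 for Znrf3), and Znrf3 also missed the threshold with total library size (1.85, edgeR adjusted p = 0.0616). The Rnf43 change was 3.77 without organoid 3 and 4.99 without 2D culture 1.

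The R-spondin receptors moved in opposite directions. Lgr5 (gene ID 299802), known as a stem cell marker of several epithelia, was at 3.31, 3.76 and 3.93 CPM in 2D culture and at 0.295, 0 and 0 CPM in organoids. That is 358 counts over the 2D libraries and 5 counts over the organoids, all of them in organoid 1. The ratio of pooled levels was 40.1-fold lower in organoids (95% exact interval 17 to 124, counting error only). Lgr5 fell by 5.19 on the log2 scale (SE 1.45, edgeR adjusted p = 0.039), and the call was lost without any of 2D culture 1, 2 or 3 (edgeR adjusted p of 0.131 to 0.139). The fitted change was then still -5.26 to -5.14. Without organoid 1 no organoid count remained.

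Lgr6 (gene ID 498233), the close paralogue of Lgr5, was at 1.38, 1.83 and 2.07 CPM in 2D culture and at 52.2, 19.0 and 19.9 CPM in organoids. Each organoid was far above each 2D library, and organoid 1 was 2.75 times as high as organoid 2. Lgr6 rose 17.2-fold (4.10 ± 0.54, edgeR adjusted p = 0.00323). The call held under all 13 alternative settings, and the change was 3.48 without organoid 1. Counted together, Lgr5 made up 70.6%, 67.2% and 65.5% of the Lgr5 and Lgr6 counts in 2D culture 1, 2 and 3 (95% exact Clopper-Pearson intervals within 58.3% to 77.7%). In organoid 1 it made up 0.561% (interval 0.182% to 1.3%). In organoid 2 and 3 it was 0 of 316 and 0 of 420 counts (intervals of 0 up to 1.161% and 0.8745%).

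The third receptor and the R-spondins showed further shifts. Lgr4, the most broadly expressed receptor of this family, was at 10.8, 12.8 and 9.41 CPM in 2D culture and at 64.7, 138 and 68.9 CPM in organoids (3.04 ± 0.37 on the log2 scale, edgeR adjusted p = 0.0026). Rspo1 had 5.30, 4.37 and 3.56 CPM in 2D culture and 0 counts in every organoid, at least 80.5-fold lower against a limit of 3 counts over the organoids (edgeR adjusted p = 0.00679). It lost its call without 2D culture 1 or 2. Rspo3 went from 0.0717 ± 0.0638 to 3.04 ± 1.60 CPM (5.31 ± 1.25, edgeR adjusted p = 0.0226), a call lost without any of 2D culture 1, 2 or 3. Rspo2 did not pass (0.60 ± 1.35, edgeR adjusted p = 0.775), and Rspo4 was removed by the filter at 5 counts in all.

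**Figure D2:**
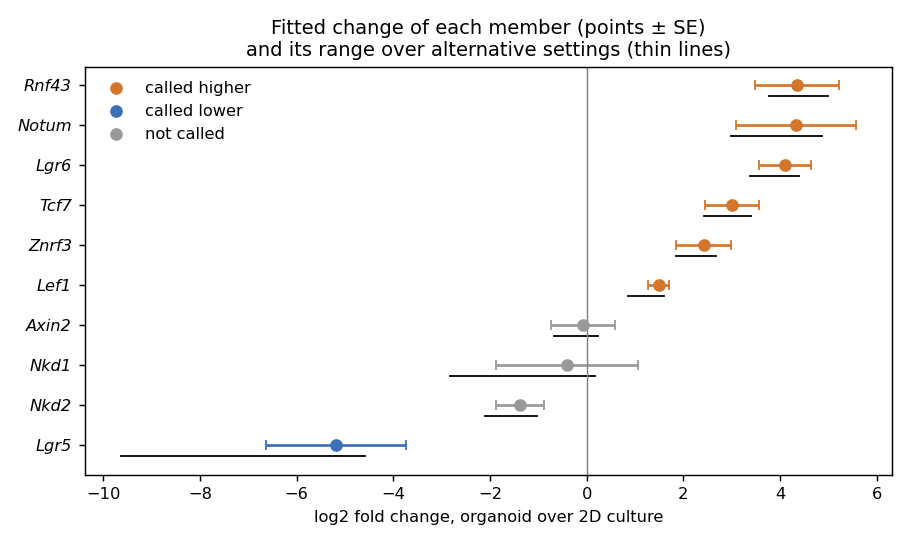
The horizontal axis is the log2 fold change, organoid over 2D culture; points are the fitted values with bars of ± SE, coloured by call, and the thin line under each point spans the 13 alternative settings. The lines of Lgr6 and Lef1 run from 3.39 to 4.40 and from 0.86 to 1.59, while those of Axin2 and Nkd1 cross 0.

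Ratios of related genes within a library do not depend on how libraries are scaled, and gene length cancels between groups. For 5 pairs, the log2 ratio of counts (plus 0.5) was compared between groups with a two-sided exact permutation test, which cannot give a p below 0.1 with 3 against 3 libraries. Lgr5 over Lgr6 was 1.25, 1.03 and 0.92 in 2D culture and -7.33, -9.31 and -9.72 in organoids. This was the widest separation among the pairs (exact permutation p = 0.1, adjusted over 5 pairs 0.25), although the organoid values depend on the added 0.5 where Lgr5 was at 0. Rnf43 over Znrf3 was -1.33, -2.81 and -2.20 in 2D culture and -0.59, -0.40 and 0.38 in organoids, without overlap. The ratio was thus 3.76-fold higher in organoids (difference 1.91, exact permutation p = 0.1, adjusted 0.25).

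The other pairs overlapped between groups. Lef1 over Tcf7 was 2.45, 1.94 and 2.40 in 2D culture and 2.22, -0.16 and 0.79 in organoids (difference -1.31, exact permutation p = 0.2, adjusted 0.333). Organoid 1 thus kept a ratio within the 2D range, while the ratio was lowest in organoid 2. Nkd1 over Nkd2 stayed between -4.00 and -3.82 in 2D culture and spread from -8.69 to -2.39 in organoids (exact permutation p = 1). Axin2 over Axin1, the inducible against the constitutive scaffold, averaged -2.46 ± 0.38 in 2D culture and -2.25 ± 1.22 in organoids (SD, n = 3, exact permutation p = 0.8, adjusted 1).

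**Figure D3:**
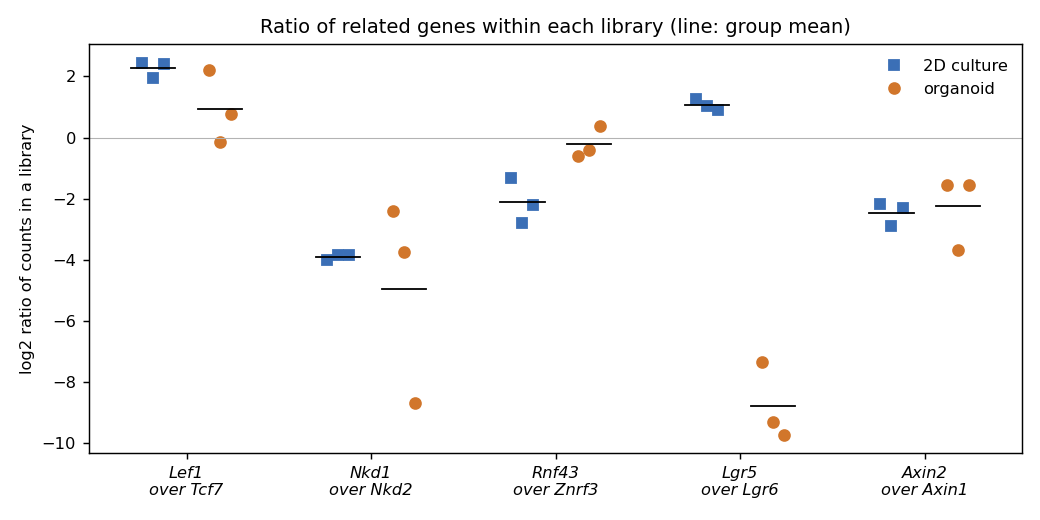
The vertical axis is the log2 ratio of the counts of 2 related genes (0.5 added to each) in 1 library; squares are 2D culture, circles organoids, lines group means of 3 libraries. Lgr5 over Lgr6 drops from 0.92 to 1.25 in 2D culture to -9.72 to -7.33 in organoids, and Rnf43 over Znrf3 separates the groups without overlap.

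The organoid that was highest differed between members. Organoid 1 was highest for 5 members (Nkd1, Nkd2, Lgr5, Lgr6 and Lef1), organoid 2 for 2 (Notum and Tcf7) and organoid 3 for 3 (Axin2, Rnf43 and Znrf3). The SD of the log2 level was larger in organoids than in 2D culture for all 10 members. It ran from 0.05 (Lef1) to 0.80 (Rnf43) in 2D culture and from 0.19 (Lef1) to 4.31 (Nkd1, with 0 counts in organoid 3) in organoids, beside medians over all genes tested of 0.138 and 0.699. Organoid 1 was also the lowest organoid for 3 members that rose (Rnf43, Znrf3 and Tcf7). It had the highest Col2a1, 78321 CPM against 6414 in organoid 2 and 21945 in organoid 3. The part of cartilage content in the members' spread was not tested.

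The rest of the Wnt pathway was described from lists of 102 genes, 98 of them in the files and 83 tested. Of these 83 genes 25 rose, 7 fell and 51 did not pass, with a median log2 fold change of 0.60. Over all genes tested 14.9% were called higher and 12.6% lower, shares that also stand beside the counts of each list below. Without 2D culture 1, 2 or 3 the genes that rose numbered 14, 16 and 13 and those that fell 1, 2 and 2, and with total library size 16 rose and 14 fell. The calls over all genes tested moved as well, from 1944 higher and 1650 lower to 1063 and 3529 with total library size. Without 2D culture 1, 2 or 3 they were 715, 774 and 703 higher and 399, 437 and 406 lower. The receptor list had 4 of 17 genes higher, 1 lower and 12 not past the threshold. With total library size 4 were lower, with DESeq2, with limma-voom and without organoid 2 there were 2, without organoid 3 there were 3, and without any of 2D culture 1, 2 or 3 there were 0. Lrp5, a Wnt co-receptor, rose from 7.04 ± 1.44 to 37.4 ± 10.9 CPM (2.41 ± 0.34, edgeR adjusted p = 0.00401), Lrp4, a receptor that binds sclerostin and Dkk1, by 3.66 ± 0.36, and the receptor gene Fzd9 by 7.36 ± 1.19. Fzd1 fell by 1.32 (log2). Its call was lost without any of 2D culture 1, 2 or 3, without organoid 1 and with limma-voom weighted per group. Fzd4, with 825 counts in 2D culture and 29 in organoids, did not pass (-3.88 ± 1.25, edgeR adjusted p = 0.0596). It passed as lower with total library size (edgeR adjusted p = 0.0299) and DESeq2 (adjusted p = 0.00194). It also did with limma-voom, plain (adjusted p = 0.016) or weighted per group (adjusted p = 0.0264). The change of Fzd9 was 9.04 without 2D culture 1, where 1 count in 2D culture remained.

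Of 17 genes of beta-catenin and its destruction complex, 4 rose, 0 fell and 13 did not pass. Gsk3b, a kinase that marks beta-catenin for degradation, rose by 2.01 ± 0.31, Tnks, which destabilises Axin, by 1.43 ± 0.24, and Dvl3, a Dishevelled gene, by 1.25 ± 0.34. The fourth gene was Tnks2, a paralogue of Tnks (25.9 ± 2.94 CPM in 2D culture, 51.7 ± 11.1 CPM in organoids, edgeR adjusted p = 0.0266). Tnks lost its call with total library size and without 2D culture 1 or 3, and Dvl3 and Tnks2 with total library size and without any of 2D culture 1, 2 or 3. This left 1, 2 and 1 genes of the list higher without 2D culture 1, 2 and 3, and 1 higher and 1 lower with total library size. Without organoid 3 there were 4 higher and 1 lower. Among 14 further TCF factors and nuclear partners 5 rose, 0 fell and 9 did not pass. Besides Tcf7l1 and Tcf7l2 these included the co-repressor Tle2 (1.92 ± 0.46, edgeR adjusted p = 0.0237), which lost its call with total library size and without any of 2D culture 1, 2 or 3. Leaving out 2D culture 1, 2 or 3 kept 1, 2 and 1 of that list higher, and total library size 2.

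Other genes known as beta-catenin targets moved both ways. The test called 3 of the 12 genes higher and 3 lower, and 6 missed the threshold. Apcdd1 missed it with 313 counts in 2D culture and 6 in organoids (-4.74 ± 1.49, edgeR adjusted p = 0.0554). It passed as lower with total library size (edgeR adjusted p = 0.0228), DESeq2 (adjusted p = 0.00513) and limma-voom, plain (adjusted p = 0.00862) or weighted per group (adjusted p = 0.0179). Myc and Ccn4 missed it as higher (edgeR adjusted p = 0.0577 and 0.0593) and passed with DESeq2 and plain limma-voom. With limma-voom weighted per group Ccn4 passed (adjusted p = 0.0326) and Myc did not (adjusted p = 0.062). Bambi, a decoy receptor of TGF-beta and BMP signals, rose from 28.8 ± 2.22 to 453 ± 70.5 CPM (by 3.97 ± 0.23, edgeR adjusted p = 0.000242) and Sox4 by 2.25 ± 0.55. Ccnd1, the cyclin D1 gene that drives entry into the cell cycle, fell from 604 ± 4.55 to 149 ± 33.1 CPM (by 2.02 on the log2 scale, edgeR adjusted p = 0.00231). Sox4 lost its call with total library size and without any of 2D culture 1, 2 or 3, when 1 gene of the list rose and 1, 2 and 1 fell. Total library size gave 1 higher and 4 lower, and DESeq2 5 and 4. Sp5, a sensitive target in many cells, had 3 counts in 2D culture, 0 in organoids and no test.

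Among 7 tested Wnt ligands 2 rose, 0 fell and 5 did not pass. Wnt5a, a ligand of beta-catenin-independent Wnt signalling, was at 41.6 to 48.7 CPM in 2D culture and 1.62 to 14.8 CPM in organoids and did not pass (-2.13 ± 0.72, edgeR adjusted p = 0.0699). It passed as lower with total library size (edgeR adjusted p = 0.0207), DESeq2 (adjusted p = 0.0102), limma-voom (adjusted p = 0.0225), limma-voom weighted per group (adjusted p = 0.0231) and without organoid 2 (edgeR adjusted p = 0.00196). The ligands called lower numbered 1 with total library size, with DESeq2 and without any of organoid 1, 2 or 3. With limma-voom, weighted or not, they numbered 2. The ligands called higher numbered 3 with DESeq2, 4 without organoid 2 and 1 without 2D culture 3. Of 10 secreted inhibitors 5 rose, 2 fell and 3 did not pass. The ligand genes that rose were Wnt5b, from 3.70 ± 1.17 to 73.3 ± 29.7 CPM (4.30 ± 0.45, edgeR adjusted p = 0.00147), and Wnt11 (5.11 ± 0.91), which lost its call without 2D culture 3. Sost, which encodes the osteocyte inhibitor sclerostin, had 1 count in 2D culture and 245 in organoids, a 437-fold higher pooled level (95% exact interval 77.7 to 17300, counting error only). That count was in 2D culture 2, without which no 2D count remained. Frzb, a further secreted inhibitor, had 15 counts in 2D culture and 36480 in organoids (edgeR adjusted p = 0.00331), a call that limma-voom did not make (adjusted p = 0.0508). The change of Frzb was 12.08 ± 1.59, but 13.69 without 2D culture 1 and 10.72 without organoid 1. Dkk1, a secreted inhibitor that blocks Lrp5 and Lrp6, had 0 counts in 2D culture and 9302 in organoids, at least 5530-fold higher against a limit of 3 counts over the 2D libraries. Sfrp2, a secreted Frizzled-related inhibitor, fell by 3.87 (log2). Its call was lost without any of 2D culture 1, 2 or 3, when 4 secreted inhibitors rose and 0 fell. With total library size and with limma-voom weighted per group 4 rose and 3 fell, and with plain limma-voom 3 rose and 3 fell. DESeq2 and leaving out organoid 1 each gave 5 higher and 3 lower, no filter 4 and 2, and leaving out organoid 3 gave 5 and 1. Of the ligand secretion genes Porcn and Wls, 0 passed the test.

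**Figure D4:**
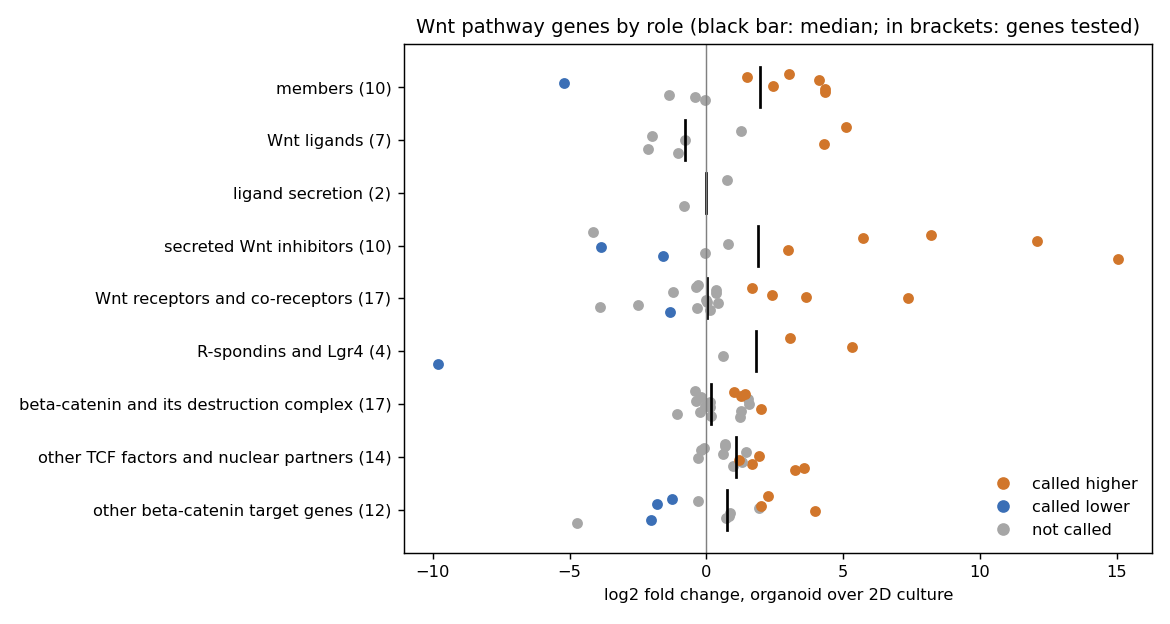
Each point is 1 tested gene, placed by its log2 fold change, organoid over 2D culture, in the row of its role; colours give the call in edgeR's quasi-likelihood test, black bars the median of each list, and brackets the number of genes tested. The members have a median of 1.96, the other TCF factors and nuclear partners 1.09 and the receptors 0.01; the outermost points, Dkk1 and Rspo1, have 0 counts in a group, so their fitted position is no measure of size.

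The tested genes whose pattern over the 6 libraries was most like that of a member were taken for the 3 members with the highest mean CPM, by the root mean square distance of centred log2 levels. For Tcf7 the nearest of all genes was Tcf7l1 (distance 0.119), followed by Inafm2 (0.127) and Klf4 (0.14). Tcf7l1 was at 19.3, 82.5 and 38.2 CPM in organoid 1, 2 and 3, in the same order as Tcf7. For Lef1 the nearest were Aldoa (0.0537), Rps6kb1 (0.0618) and Plekhf1 (0.0753), and for Nkd2 they were LOC102548917 (0.118), Pdp1 (0.146) and Pwp2 (0.176). These are descriptions over 6 libraries in 2 groups, which the group difference dominates for genes that rose or fell.

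Markers of other cell types were summed in each library. Osteoblast and osteocyte markers (8 of 8 called higher) went from 207 to 220 CPM in 2D culture to 5165 to 6230 CPM in organoids, hypertrophic cartilage markers (4 of 4 called higher) from 3.76 to 4.70 CPM to 10126 to 17980 CPM, and cartilage markers (5 of 6 tested called higher) from 1491 to 1594 CPM to 11380 to 97172 CPM. In organoids Ibsp made up most of the hypertrophic sum (7648 to 14455 CPM), beside 265 to 2637 CPM of Col10a1. The cartilage sum was mostly Acan in 2D culture (1413 to 1513 CPM) and mostly Col2a1 in organoids (6414 to 78321 CPM). These sums were higher in organoids, as were the 6 members that rose. The part of these markers in the members' changes was not tested. Among organoids the cartilage sum was highest in organoid 1, where Lgr6 and Lef1 were highest and Rnf43, Znrf3 and Tcf7 lowest. It was lowest in organoid 2, where Notum and Tcf7 were highest and Lgr6 lowest. Of 8 T cell markers, listed because T cells express Lef1 and Tcf7, 5 were in the files. They summed to 5.17 to 5.98 CPM in 2D culture and to at most 0.142 CPM in organoids (2 of 2 tested called lower). Cd4 was at 0 in all libraries, and Cd2 and Cd28 were at 0 in organoids. In 2D culture the sum was mostly Cd2 (3.48 to 3.68 CPM) and Cd28 (1.49 to 2.15 CPM). Ptprc had 0 counts in every 2D library and 1, 0 and 3 counts in organoid 1, 2 and 3. Cd8a had 5, 4 and 0 counts in 2D culture 1, 2 and 3. Epithelial markers, listed because Lgr5 and Lgr6 mark epithelial stem cells, summed to 0.96 to 1.47 CPM in 2D culture and 1.32 to 5.42 CPM in organoids, with 6 of 7 genes in the files, 0 of 1 tested called and Krt14 at 0 in all libraries. Macrophage and osteoclast markers (1 of 3 tested called higher) summed to 139 to 141 CPM in 2D culture and 103 to 299 CPM in organoids, with Adgre1 at 0 throughout. Most of this sum was Ctsk (134 to 137 CPM in 2D culture, 87.9 to 196 CPM in organoids, not called). Acp5 rose from 3.55 to 4.35 CPM in 2D culture to 14.8 to 99.0 CPM in organoids (edgeR adjusted p = 0.0174). Csf1r, removed by the filter, reached at most 0.279 CPM in 2D culture. It was at 32.5, 16.7 and 0.142 CPM in organoid 1, 2 and 3, whereas Tnfrsf11a was at 0 in organoids. Endothelial markers reached at most 2.47 CPM in any library, and 0 of 1 tested was called. Synovium and tendon markers summed to 69.2 to 74.9 CPM in 2D culture and 3.26 to 56.6 CPM in organoids (2 of 4 called lower), adipocyte markers to 25.5 to 27.9 and 9.13 to 22.1 CPM (1 of 3 tested called higher), and smooth muscle and pericyte markers to 484 to 510 and 401 to 1269 CPM (1 called higher and 3 lower of 4 tested). Cspg4 made up 397 to 1266 CPM of that sum in organoids, whereas the contractile genes Acta2 (122 to 137 CPM in 2D culture, 0.18 to 2.18 CPM in organoids), Myh11 (52.9 to 66.9 and 0.331 to 3.49 CPM) and Cnn1 (107 to 125 and 0 to 0.177 CPM) fell.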

How the data were processed

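The authors deposited estimated counts per gene (expected counts, which need not be whole) for each of the 6 libraries, unscaled. Per the submitters' processing notes the tools included RSEM, Bowtie2, HISAT, HISAT2 and DESeq2, with no version or role. Build, annotation and strandedness: not given in the sources used here. Where RSEM-type counting splits reads among similar genes, counts become fractional (1846 to 2501 genes per library). Groups come from the sample titles. Counts were rounded and fitted with edgeR 4.0.16 (limma 3.58.1, R 4.3.3): filterByExpr with a minimum count of 10 kept 13052 of 17954 genes, libraries were scaled by TMM (factors 0.662 to 1.266), and the robust quasi-likelihood F-test was adjusted by Benjamini-Hochberg over all genes tested at 0.05. Each SE was obtained by dividing the size of the log2 fold change by the root of its F statistic. Alternatives were total library size, RLE scaling, no filter, DESeq2 1.42.0, limma-voom with and without group weights, a replicate block and leaving out each library. In a library, 3 counts equal 0.0917 to 0.18 CPM. Intervals cover counting error only.

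Replicates of a group differed beyond sampling noise (chi-square over its degrees of freedom, at least 9.07). The members, pathway lists and marker lists were chosen with earlier results of these data known. Named genes are the 10 members, in each pathway list up to 3 called genes with the widest change among those reaching 1 CPM in the higher group and the widest called change the other way, and the 3 genes nearest in pattern to each of 3 members. Col2a1, Acan and Sox9 and genes of marker lists whose sums differ over 2-fold may also be named. Ctnnb1, Axin1, Rspo2, Rspo4, Sp5, Apcdd1, Myc, Ccn4, Porcn, Wls, Tnks2, Wnt5a and Fzd4 are named outside this rule, after their values were seen. So are the other marker genes. The genes' IDs and symbols are those of the files. Promoter sequences are from RefSeq (GRCr8), matched by gene ID.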

Additional observations from a re-analysis of the deposited data

How the results depend on the processing

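Of 130 refits of single members (10 members, 13 alternatives), 98 kept direction and side of the threshold, 22 lost a call, 6 gained one and 4 changed direction. The last were Axin2 without 2D culture 1 (0.04), without organoid 1 (0.03) and without organoid 2 (0.24), and Nkd1 without organoid 3 (0.17), none of them called. Over the refits without 1 library Axin2 ran from -0.49 to 0.24 and Nkd1 from -2.51 to 0.17. Lgr6 and Lef1 kept their calls under all 13. RLE scaling and no filter changed no member's call. Leaving out 1 library gave 2 to 6 members higher, 0 to 2 lower, 13 to 32 other Wnt pathway genes higher and 1 to 11 lower, and 1109 to 5321 genes called in all. The low ends came without a 2D library. Members called lower were 2 with each of DESeq2, total library size, limma-voom weighted per group and plain limma-voom, since Nkd2 then passed. Other Wnt pathway genes called higher fell to 16 with total library size, and those called lower were 14 with total library size, 11 with DESeq2, 12 with limma-voom and 11 with group weights. Total library size shifted the median log2 fold change of all genes from -0.03 to -0.65, and 23.1% of its calls were higher against 54.1%. With a pseudocount of 2 the Lgr5 over Lgr6 difference was -8.39. Leaving out 1 library gave differences of -0.14 to 0.92 for Axin2 over Axin1 (reversed at -0.01, -0.14 and -0.14 without 2D culture 2, organoid 1 and organoid 3) and -2.32 to 0.83 for Nkd1 over Nkd2 (reversed without organoid 3), -1.95 to -0.76 for Lef1 over Tcf7, -10.6 to -9.39 for Lgr5 over Lgr6 and 1.56 to 2.30 for Rnf43 over Znrf3. With the replicate number as a block 4 members were higher and 1 lower (2730 genes called in all): Notum, Znrf3 and Lgr5 lost their calls (edgeR adjusted p = 0.158, 0.102 and 0.063) and Nkd2 passed (-1.61, edgeR adjusted p = 0.035). Of the other pathway genes described, Rspo3, Tle2 and Tnks2 lost their calls under the block (edgeR adjusted p = 0.0797, 0.0514 and 0.0549) and Wnt5a passed as lower (edgeR adjusted p = 0.0394). Deviations of same-numbered libraries correlated at 0.0372, 0.153 and 0.015, so the numbers were not taken to pair the samples, and not every library correlated best with its own number. Depth limits Notum and Rnf43 in 2D culture (at most 16 and 18 counts a library) and Lgr5 in organoids (at most 5). Where no cause is given above, the cause was not tested.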
